A study of Sus scrofa with 13 samples.

Results

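The genes described here are those of the cellular response to low oxygen together with the enzymes that turn glucose into lactate. They were taken from a table of 30477 pig genes as the protein-coding entries whose symbol stands on a list of 34 genes. By symbol, 27 of the 34 were found: 11 glycolytic enzymes and 16 other hypoxia targets. A further 4 (EGLN1, ALDOA, PGAM1 and PKM) carry no symbol in the table and were named from their Ensembl identifiers. They are shown beside the 27 and kept out of the counts unless stated. SLC2A1, SLC2A3 and HMOX1 were not analysed here. The tissue was the outflow vein of an arteriovenous fistula in pigs, the vein that carries arterial flow once it has been joined to an artery to give haemodialysis access. The 5 vehicle libraries came from animals labelled PLGA+Hydrogel, a biodegradable polymer in a gel. The 8 treated libraries came from animals labelled 1,25 NP PLGA+Hydrogel, in which nanoparticles of that polymer carried 1α,25-dihydroxyvitamin D3, the active hormone form of vitamin D. Both groups thus received the polymer and the gel, and neither an untreated fistula nor an unoperated vein was analysed here. The comparison asks whether vein transcripts differ when the polymer carries the hormone. Strain, age, dose and time after surgery of these pigs were not stated in the labels.

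In well-oxygenated cells the prolyl hydroxylases EGLN1 and EGLN3 mark the transcription factor subunit HIF1A for destruction. When oxygen falls, or when inflammatory signals act, HIF1A persists, pairs with ARNT and switches on genes for glucose uptake, glycolysis, acid handling, vessel growth and collagen hydroxylation. Because HIF1A is controlled largely at the protein level, its transcript is not a direct measure of its activity. Glycolytic enzymes are also made by every cell without low oxygen, and activated leukocytes and dividing cells are known to use much glycolysis.

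Libraries held between 30261776 and 50271231 reads on genes, recovered from the deposited values. Between 12970 and 14686 genes lay above 0.5 RPKM, a count of reads scaled by gene length and by the total reads of the library. The headers mark 3 females and 2 males among the vehicle animals and 3 females and 5 males among the treated ones. Libraries are called here by the animal code of the header, P13 to P17 for vehicle and P21 to P42 for treated animals. P28 had the fewest genes above 0 RPKM, 19340 against 22774 in the library with the most. Libraries also differed in the share of reads on small RNA genes, from 6.27% in P17 to 20.0% in P31, with 16.8% in P42. Markers of the vein wall were present throughout, with 9 endothelial markers summing to between 109 and 241 RPKM, 10 smooth muscle markers to between 353 and 6218 RPKM and 10 fibroblast markers to between 9469 and 52094 RPKM. P17 had the highest smooth muscle sum, and its erythrocyte markers summed to 4404 RPKM against at most 149 RPKM elsewhere. All 27 genes passed the filter of more than 0.5 RPKM in at least 5 libraries, and so did the 4 named by identifier. In whole tissue, fewer cells of a type and less RNA per cell cannot be told apart.

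No gene of either list differed between treated and vehicle veins by the test across all genes. The treated veins had higher mean levels of HIF1A, of the collagen prolyl hydroxylase subunit P4HA1 and of the enzymes LDHA, HK2 and PGK1. They had lower mean levels of the stress-response gene DDIT4 and of PFKP, and none of these differences passed the test. By limma, with Benjamini-Hochberg adjustment over 14579 genes, 0 of 27 genes were called, where the background was 0% of all genes. Without adjustment 0 of 27 had a p-value under 0.05, against 4.01% of all genes tested. By voom, applied to recovered reads, 0 of 27 were called as well, with 0 under 0.05 before adjustment and a background of 4.34%. Voom with library quality weights also called 0, but HIF1A, P4HA1 and PFKFB4 were then 3 genes under 0.05 before adjustment, with a background of 13.2%. For 0 of the 27 genes did the 8 treated libraries lie entirely outside the range of the 5 vehicle libraries, against 0.096% of all genes. Log2 differences below are those of limma on log2(RPKM + 0.5), treated minus vehicle, which understates the change of low genes.

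**Figure D1:**
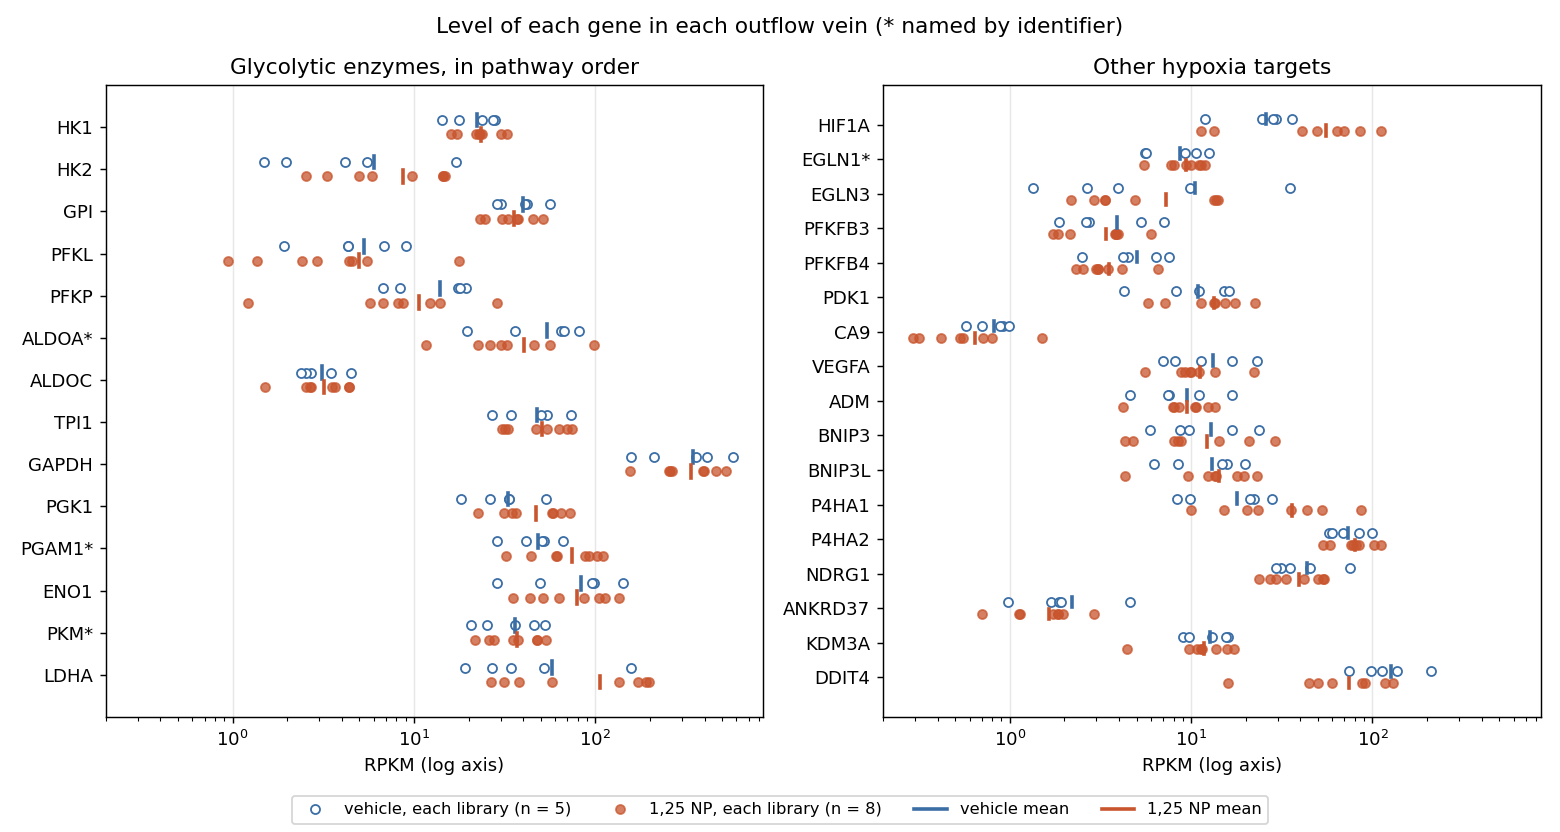
RPKM on a log axis of each gene in each vein, with glycolytic enzymes in pathway order on the left and other hypoxia targets on the right. Open circles are the 5 vehicle libraries, filled circles the 8 1,25 NP libraries and vertical bars the group means. The groups overlap for every gene, and 6 of the 8 treated HIF1A values lie above all vehicle values while 2 lie near the lowest of them.

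HIF1A itself, the oxygen-labile subunit, had 11.9 RPKM in P13, 29.5 in P14, 35.8 in P15, 24.5 in P16 and 28.2 in P17 among vehicle veins. Treated veins ran from 11.3 through a median of 56.5 to 111 RPKM. In 6 of the 8 treated veins HIF1A stood above every vehicle vein, and in the other two, P23 at 13.3 and P28 at 11.3 RPKM, it was about as low as in the lowest vehicle vein. The means were 26.0 ± 8.88 RPKM (SD, n = 5) in vehicle and 55.6 ± 34.4 RPKM (SD, n = 8) in treated veins, a log2 difference of 0.82 (SE 0.52, 95% interval -0.28 to 1.93; two-sided adjusted p = 0.795 by limma). Without P28 the log2 difference was 1.10 (SE 0.44; adjusted p = 0.322 by limma), still short of the threshold. In the file HIF1A lies on chromosome 1, from 190625181 to 190674850, in a pig build not given in the sources used here.

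The hydroxylases that act on HIF1A had smaller differences, with wide errors for EGLN3. EGLN1, the main oxygen sensor, had 8.73 ± 3.06 RPKM in vehicle and 9.35 ± 2.15 RPKM in treated veins, a log2 difference of 0.13 (SE 0.26). EGLN3, which is itself a HIF target, had 2.66, 9.90, 3.93, 34.9 and 1.35 RPKM in vehicle P13 to P17, and from 2.19 through a median of 4.12 to 14.1 RPKM in treated veins. A single vehicle vein, P16, was thus far above all others for EGLN3. Its log2 difference was -0.02 (SE 0.65) with all libraries and 0.61 (SE 0.56) without P16. KDM3A, a histone demethylase gene induced by HIF1A, had 12.6 ± 3.19 and 11.8 ± 3.93 RPKM.

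The first steps of glycolysis are run by hexokinases, which trap glucose in the cell, and by phosphofructokinase, the main control point. HK2, the inducible hexokinase, had 4.17, 5.50, 1.499, 16.98 and 1.96 RPKM in vehicle P13 to P17, and from 2.54 through a median of 7.79 to 14.8 RPKM in treated veins. Its highest vein was vehicle P16, and the treated veins lay entirely within the vehicle range. The means were 6.02 ± 6.34 and 8.75 ± 5.24 RPKM, a log2 difference of 0.72 (SE 0.54; adjusted p = 0.795 by limma), which was 1.19 (SE 0.49; adjusted p = 0.803) without P16, 0.41 without P15 and 0.35 by voom with quality weights. HK1, the hexokinase found in most tissues, was more even across animals, at 22.2 ± 6.03 and 23.5 ± 5.61 RPKM.

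Both phosphofructokinase genes on the list had lower means in treated veins. PFKM, a further phosphofructokinase gene outside the list, had 3.04 ± 1.05 and 3.14 ± 0.926 RPKM, a log2 difference of 0.05 (SE 0.25). PFKP, the platelet-type subunit, had 19.3, 8.42, 6.71, 17.4 and 17.9 RPKM in vehicle P13 to P17, and from 1.22 through a median of 8.43 to 28.5 RPKM in treated veins. The treated veins held both the lowest value, in P31, and the highest, in P28, so the vehicle range lay inside the treated one. The log2 difference for PFKP was -0.62 (SE 0.52; adjusted p = 0.795 by limma), and -0.28 without P31. PFKL, the liver-type subunit, had 9.05, 4.30, 1.93, 6.82 and 4.32 RPKM in vehicle veins, and from 0.941 through a median of 3.65 to 17.7 RPKM in treated veins. P31 and P28 were again the extremes, and the log2 difference was -0.37 (SE 0.52; adjusted p = 0.817 by limma). Leaving out 1 library moved it between -0.15 without P13 and -0.68 without P28.

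GPI, which converts glucose 6-phosphate to fructose 6-phosphate, had 42.1, 30.4, 28.5, 56.6 and 40.8 RPKM in vehicle P13 to P17, and from 22.98 through a median of 35.1 to 51.8 RPKM in treated veins. The groups overlapped over most of their range, with 2 treated veins below all vehicle veins and a log2 difference of -0.17 (SE 0.25; adjusted p = 0.829 by limma), which ran from -0.27 without P15 to -0.03 without P16. The aldolases split fructose 1,6-bisphosphate. ALDOA had 53.9 ± 25.2 and 40.4 ± 27.0 RPKM, but it overlaps another gene entry of similar mean level, 56.1 RPKM, and reads of the 2 may not be separable. ALDOC was low at 3.11 ± 0.872 and 3.17 ± 0.991 RPKM. It overlaps the PIGS entry, at a mean of 4.17 RPKM, and the SPAG5 entry, at 2.72 RPKM, so its reads are uncertain too. GPI overlaps the KIAA0355 entry, at a mean of 12.8 RPKM. The isomerase TPI1 had 47.8 ± 18.2 and 50.5 ± 17.5 RPKM. None of these differences exceeded the spread between animals.

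GAPDH, the oxidising step, had the highest level per length of all the genes, with 344 ± 167 RPKM in vehicle veins (158 to 578) and 338 ± 125 RPKM in treated veins (155 to 524). Its log2 difference was 0.03 (SE 0.37, 95% interval -0.76 to 0.82), so changes of up to about that interval in either direction could not be told from none. Within each group GAPDH varied several-fold between animals. ENO1, the enolase, had 83.2 ± 44.8 and 78.9 ± 36.0 RPKM, a log2 difference of -0.01 (SE 0.42). PKM, the pyruvate kinase gene, had 36.1 ± 13.4 and 37.0 ± 11.6 RPKM.

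The last group of enzymes had the higher means in treated veins. PGK1, which makes the first ATP of the pathway and lies on chromosome X from 62187431 to 62212244 in the file, had 18.1, 26.3, 33.6, 53.6 and 33.2 RPKM in vehicle P13 to P17. Treated veins ran from 22.5 through a median of 47.1 to 72.8 RPKM. In 4 treated veins PGK1 exceeded every vehicle vein, while the other 4 lay among the vehicle values. The means were 33.0 ± 13.1 and 47.3 ± 18.2 RPKM, a log2 difference of 0.50 (SE 0.33, 95% interval -0.20 to 1.19; adjusted p = 0.795 by limma), and 0.31 without P13.

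LDHA, which reduces pyruvate to lactate, had 19.1, 52.3, 34.5, 157 and 26.9 RPKM in vehicle P13 to P17, and from 26.5 through a median of 96.1 to 198 RPKM in treated veins. One vehicle vein, P16, was among the high ones, and 3 treated veins stood above it. The means were 57.9 ± 56.6 and 106 ± 74.99 RPKM, a log2 difference of 0.88 (SE 0.61; adjusted p = 0.795 by limma), which was 1.34 (SE 0.59; adjusted p = 0.803) without P16 and 0.51 by voom with quality weights. PGAM1, a phosphoglycerate mutase, had 48.0 ± 14.0 and 74.0 ± 28.4 RPKM, with 4 treated veins above all vehicle veins and a log2 difference of 0.56 (SE 0.32; adjusted p = 0.795 by limma).

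Over the 11 glycolytic enzymes found by symbol, 7 had a higher and 4 a lower mean log2 level in treated veins, with a median log2 difference of 0.03. Over all genes tested, 43.8% were higher and the median was -0.07. With the 3 enzymes named by identifier, 9 of 14 were higher and the median was 0.04. Without P15 only 3 of the 11 were higher, and the median was -0.10, while without P16 it was 0.24. Neither direction of the list was thus independent of single vehicle veins.

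Kinases that direct pyruvate and sugar, all known HIF targets, differed by less than the spread. PDK1, a kinase that holds pyruvate back from the mitochondrion, had 4.28, 15.1, 16.1, 8.27 and 11.1 RPKM in vehicle P13 to P17, and from 5.79 through a median of 13.5 to 22.4 RPKM in treated veins. The groups overlapped broadly, and the log2 difference was 0.29 (SE 0.36; adjusted p = 0.805 by limma). It was 0.0087 without P13 and 0.46 without P15. PFKFB4, which makes the activator of phosphofructokinase, had 4.47, 4.24, 2.52, 7.59 and 6.41 RPKM in vehicle veins, and from 2.30 through a median of 3.06 to 6.59 RPKM in treated veins. Apart from P23, the highest, the treated veins lay in or below the lower part of the vehicle range for PFKFB4, with a log2 difference of -0.44 (SE 0.28; adjusted p = 0.795 by limma), and -0.29 without P16. Its relative PFKFB3 had 3.91 ± 2.18 and 3.40 ± 1.44 RPKM.

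CA9, a membrane carbonic anhydrase that exports acid and is widely used as a hypoxia marker in tumours, was close to the filter. It had 0.574, 0.703, 0.916, 0.883 and 0.995 RPKM in vehicle P13 to P17, and from 0.292 through a median of 0.543 to 1.51 RPKM in treated veins. In 5 treated veins CA9 was below every vehicle vein and in P23 it was above them all. Its log2 difference was -0.26 (SE 0.23; adjusted p = 0.795 by limma), and -0.43 with a pseudocount of 0.1 or -0.52 by voom.

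The secreted vascular factors differed between the groups by less than the spread. VEGFA, the chief endothelial growth factor, had 23.02, 11.4, 6.95, 16.8 and 8.17 RPKM in vehicle P13 to P17, and from 5.55 through a median of 9.91 to 22.1 RPKM in treated veins. Its highest values were vehicle P13 and treated P28, and the groups overlapped almost completely. The log2 difference for VEGFA was -0.19 (SE 0.33, 95% interval -0.90 to 0.52; adjusted p = 0.847 by limma), and it was 0.03 without P13. ADM, the vasodilator peptide adrenomedullin, had 9.48 ± 4.71 and 9.46 ± 2.92 RPKM.

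P4HA1 and P4HA2 are catalytic subunits of the enzyme that hydroxylates proline in collagen, which stabilises its triple helix. P4HA1 had 8.39, 22.1, 27.8, 21.1 and 9.80 RPKM in vehicle P13 to P17, and from 10.04 through a median of 29.5 to 86.7 RPKM in treated veins. In 4 treated veins P4HA1 exceeded every vehicle vein, with P31 the highest. The means were 17.8 ± 8.39 and 35.9 ± 25.1 RPKM, a log2 difference of 0.84 (SE 0.47, 95% interval -0.17 to 1.84; adjusted p = 0.795 by limma). P4HA2 had a higher level per length than P4HA1 in both groups and differed less between them, at 73.7 ± 17.4 and 80.6 ± 19.6 RPKM with a log2 difference of 0.12 (SE 0.24).

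DDIT4, an inhibitor of mTOR signalling that is induced by low oxygen, glucocorticoids and DNA damage, had 136, 73.9, 112, 210 and 98.5 RPKM in vehicle P13 to P17. Treated veins ran from 16.0 through a median of 73.8 to 129 RPKM. In 4 treated veins DDIT4 was below every vehicle vein, with P42 the lowest at 16.0 RPKM, and the other 4 lay within the vehicle range. The means were 126 ± 51.9 and 74.3 ± 38.4 RPKM, a log2 difference of -0.90 (SE 0.44, 95% interval -1.84 to 0.04; adjusted p = 0.795 by limma), and -0.54 by voom with quality weights. DDIT4 had the smallest unadjusted p-value of all the genes on the list (limma, unadjusted p = 0.0598) and overlaps the ASCC1 entry, which had a mean of 4.73 RPKM.

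The mitophagy receptors and the remaining stress genes had log2 differences no larger in size than that of ANKRD37, -0.27 (SE 0.31). BNIP3 had 12.9 ± 7.14 and 12.3 ± 8.63 RPKM and BNIP3L 13.01 ± 5.54 and 14.3 ± 5.89 RPKM. NDRG1, a stress-induced gene, had 43.3 ± 19.0 and 39.1 ± 12.4 RPKM. ANKRD37, a small HIF target, had 2.21 ± 1.39 and 1.66 ± 0.674 RPKM and overlaps the more abundant UFSP2 entry, at a mean of 12.6 RPKM, so its reads are uncertain. Without P16 its log2 difference was -0.01. Among the 16 other hypoxia targets 6 were higher and 10 lower, with a median log2 difference of -0.12. With EGLN1, 7 of 17 were higher and the median was -0.12. The median was -0.21 without P17 and 0.07 without P16.

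**Figure D2:**
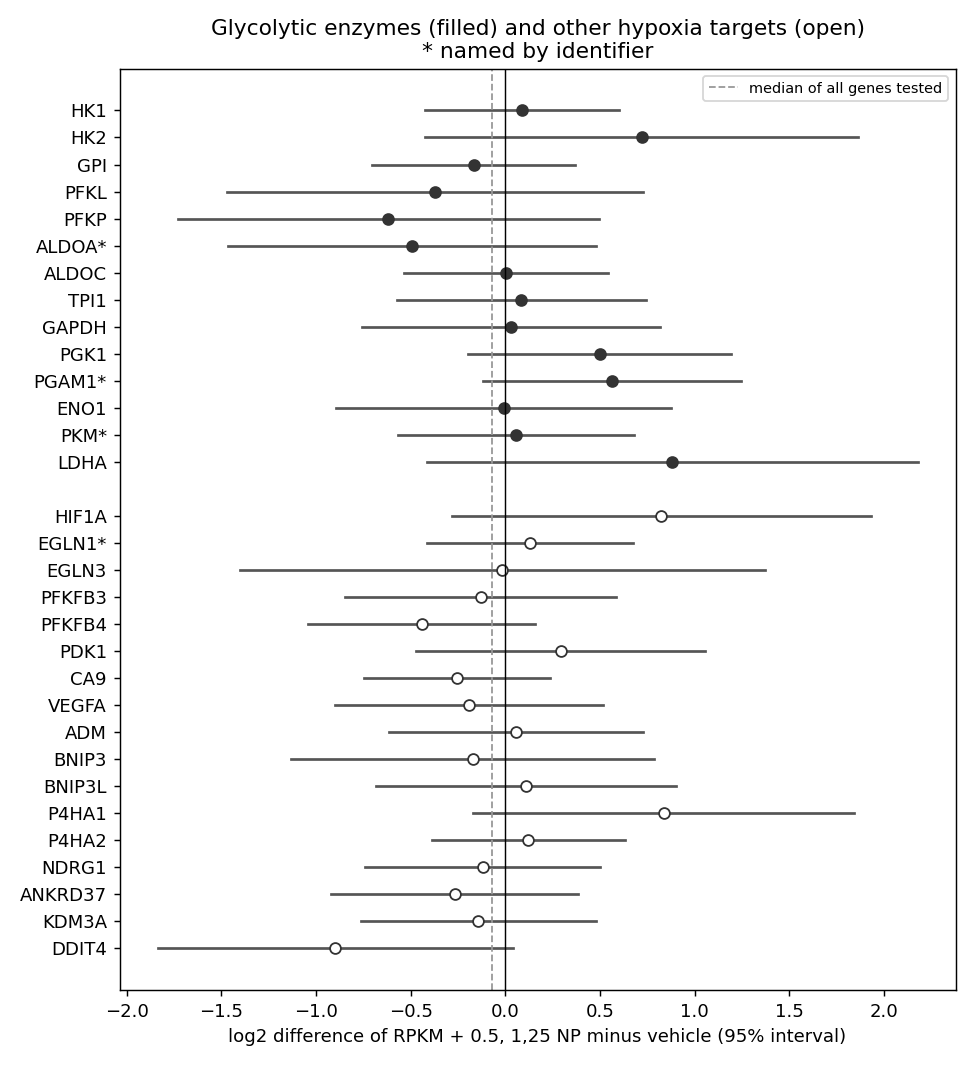
Log2 difference of RPKM + 0.5, 1,25 NP minus vehicle, for each gene, with its 95% interval from limma as a line. Filled circles are glycolytic enzymes, open circles other hypoxia targets, and the dashed line is the median of all genes tested, -0.07. Every interval covers 0, and DDIT4, at -0.90 with an upper end of 0.04, comes closest to leaving it out.

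Genes of the same pathways outside the list were read from the same fit. Of 16 genes of the oxygen-sensing machinery, 14 were in the table and all 14 were tested. Of these 4 were higher and 10 lower, 0 were called by limma after adjustment, and 2 had an unadjusted p-value under 0.05, both lower (background for lower genes 3.21%). CREBBP, a coactivator of HIF, had 19.6 ± 3.40 RPKM in vehicle and 13.7 ± 3.20 RPKM in treated veins, a log2 difference of -0.52 (SE 0.22; adjusted p = 0.795 by limma). Here 6 treated veins lay below all vehicle veins. HIF3A, which can restrain HIF activity, had 4.29 ± 5.20 and 1.08 ± 1.01 RPKM, a log2 difference of -1.27 (SE 0.58; adjusted p = 0.795 by limma), with 13.2 RPKM in vehicle P17 alone. CITED2, a competitor of HIF1A for coactivator binding, had 6.82 ± 3.14 and 4.42 ± 0.935 RPKM. EPAS1, the endothelial HIF subunit, had 76.1 ± 56.4 and 52.3 ± 24.1 RPKM, with P17 again the highest. P17 was also the vein with the smooth muscle sum of 6218 RPKM, and the part of smooth muscle in these levels was not tested. The median log2 difference of the 14 genes was -0.11.

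Of 27 further genes of glycolysis and lactate handling, 26 were in the table and 19 passed the filter. Of those that passed, 8 were higher and 11 lower, with a median log2 difference of -0.08. By limma 0 were called and 3 had an unadjusted p-value under 0.05, all lower (background for lower genes 3.21%). PDK4, a pyruvate dehydrogenase kinase tied to fatty acid use, had 17.4 ± 17.4 RPKM in vehicle and 4.60 ± 2.79 RPKM in treated veins, a log2 difference of -1.51 (SE 0.57; adjusted p = 0.795 by limma). Its vehicle level was uneven, with 44.9 RPKM in P15. The insulin-responsive glucose transporter SLC2A4 had 2.41 ± 1.03 and 1.28 ± 0.769 RPKM, PDK2 had 4.96 ± 3.13 and 2.54 ± 1.47 RPKM, and the neuronal enolase ENO2 had 2.03 ± 1.10 and 1.29 ± 1.11 RPKM.

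Of 31 further hypoxia targets, 30 were in the table and tested. Of these 17 were higher and 13 lower, with a median log2 difference of 0.11. By limma 0 were called and 0 had an unadjusted p-value under 0.05. PLOD2, a collagen lysyl hydroxylase, had 18.0 ± 9.58 RPKM in vehicle and 47.2 ± 38.2 RPKM in treated veins, a log2 difference of 1.13 (SE 0.54; adjusted p = 0.795 by limma). TMEM45A, a HIF target in several cell types, had 9.76 ± 4.66 and 23.7 ± 20.4 RPKM. STC1, a secreted glycoprotein, had 14.7 ± 6.99 and 8.51 ± 3.98 RPKM, and EDN1, which encodes the vasoconstrictor endothelin, had 4.44 ± 2.70 and 2.44 ± 0.846 RPKM.

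The sexes are not balanced between the groups, so the difference was also fitted within each sex. The test of the difference between the sexes called 0 of 27 genes by limma, with 2 under 0.05 before adjustment against 2.92% of all genes. For EGLN3 the log2 difference was 1.64 (SE 0.69) in females and -1.98 (SE 0.71) in males (limma interaction, male minus female -3.62, SE 0.99, unadjusted p = 0.00271, adjusted p = 0.824). Only 2 vehicle males exist, P14 and P16, and without P16 the EGLN3 interaction was -2.74 (SE 1.11; adjusted p = 0.900 by limma). That fit leaves P14 as the sole vehicle male, assumed to vary like the other groups. For HK2 the log2 difference was 1.64 in females and -0.50 in males (limma interaction, -2.13, SE 0.98, adjusted p = 0.824), and the interaction was -1.36 (SE 1.12) without P16, on the same assumption. The median log2 difference of the other hypoxia targets was 0.20 in females and -0.42 in males, beside 0.00 and -0.10 over all genes, and that of the glycolytic enzymes was -0.04 and -0.10.

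**Figure D3:**
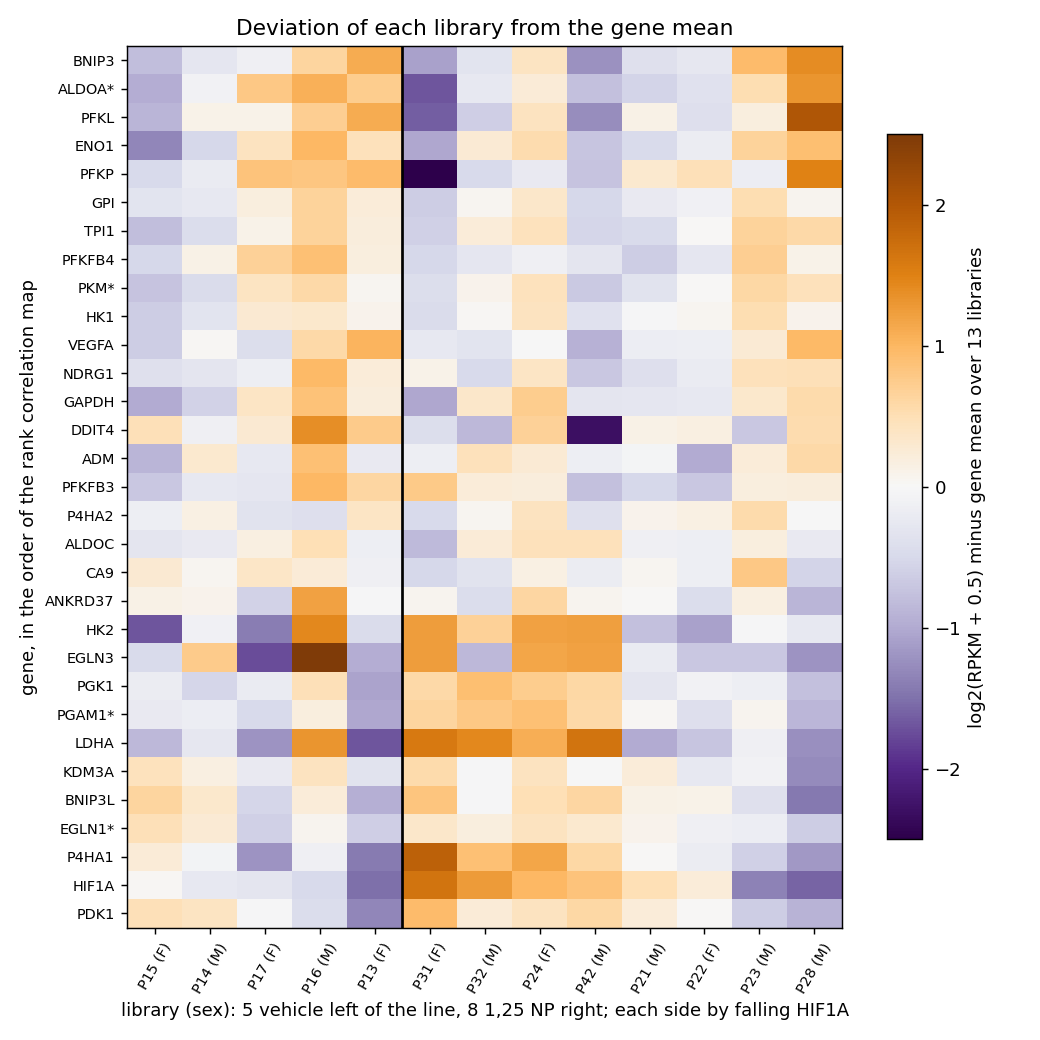
Each cell is the log2(RPKM + 0.5) of a gene in a library minus the mean of that gene over the 13 libraries, in log2 units on the colour scale. The 5 vehicle libraries stand left of the line and the 8 1,25 NP libraries right of it, each side ordered by falling HIF1A, with the sex in brackets. P16 is the highest library for many genes in the upper and middle rows of the map. P31 and P28 have opposite colours for HIF1A, BNIP3L, PFKP and PFKL.

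Animals of the same group differed widely, and in different ways for different genes. Vehicle P16 was the highest of the 13 libraries for 12 of the 27 genes, 5 of them glycolytic enzymes. Treated P31 was the highest for 5 genes, all other hypoxia targets, and the lowest for 6, of which 5 were glycolytic enzymes. Treated P28 was the highest for 3 and the lowest for 5 genes, and vehicle P15 was the lowest for 4, all of them glycolytic enzymes. P31 and P28, both treated veins, were at opposite ends for HIF1A, KDM3A, BNIP3L, PFKP and PFKL, but for CA9 they were the lowest pair, at 0.317 and 0.292 RPKM.

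The correlation between genes over the 13 libraries, on log2(RPKM + 0.5), put numbers on this. The full set of 351 pairs of the 27 genes was chosen after seeing the data. By Spearman's rho with 100000 permutations and Benjamini-Hochberg adjustment over the 351 pairs, 60 pairs were positively and 16 negatively correlated. The weakest of these pairs had a rho of 0.698 in size. That limit was reached by 17.1% of the pairs in the positive and 4.56% in the negative direction, and by 13.4% and 10.2% of the 106266331 pairs of all genes tested. Strong correlation between a pair of genes was thus common throughout these libraries, and the share of positive pairs on the list was close to that background. Genes in a library share its depth, for which the values are scaled, and its mixture of cells. The part of either in these correlations was not tested.

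Within the glycolytic enzymes the median rho was 0.53 over 55 pairs, of which 19 passed positively and 1 negatively. Within the other hypoxia targets the median rho was 0.11 over 120 pairs, with 17 positive and 5 negative. Most glycolytic enzymes varied with ENO1. For ENO1 with TPI1, Pearson's r was 0.973 and Spearman's rho 0.962 (n = 13; permutation p = 1e-05 for each, the smallest that the permutations can give; adjusted p = 0.000702 and 0.00175). Without the 2 libraries with the most extreme ENO1 levels, P15 and P31, r was 0.965. With ENO1 rho was also 0.918 for GAPDH, 0.929 for GPI, 0.923 for HK1, 0.868 for PFKL and 0.709 for PFKP.

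PGK1, LDHA and HK2 did not follow this enolase pattern. With ENO1, rho was -0.11 for PGK1, -0.24 for LDHA and 0.22 for HK2. Adjacent steps of the same pathway, GAPDH and PGK1, had a rho of 0.10.

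**Figure D4:**
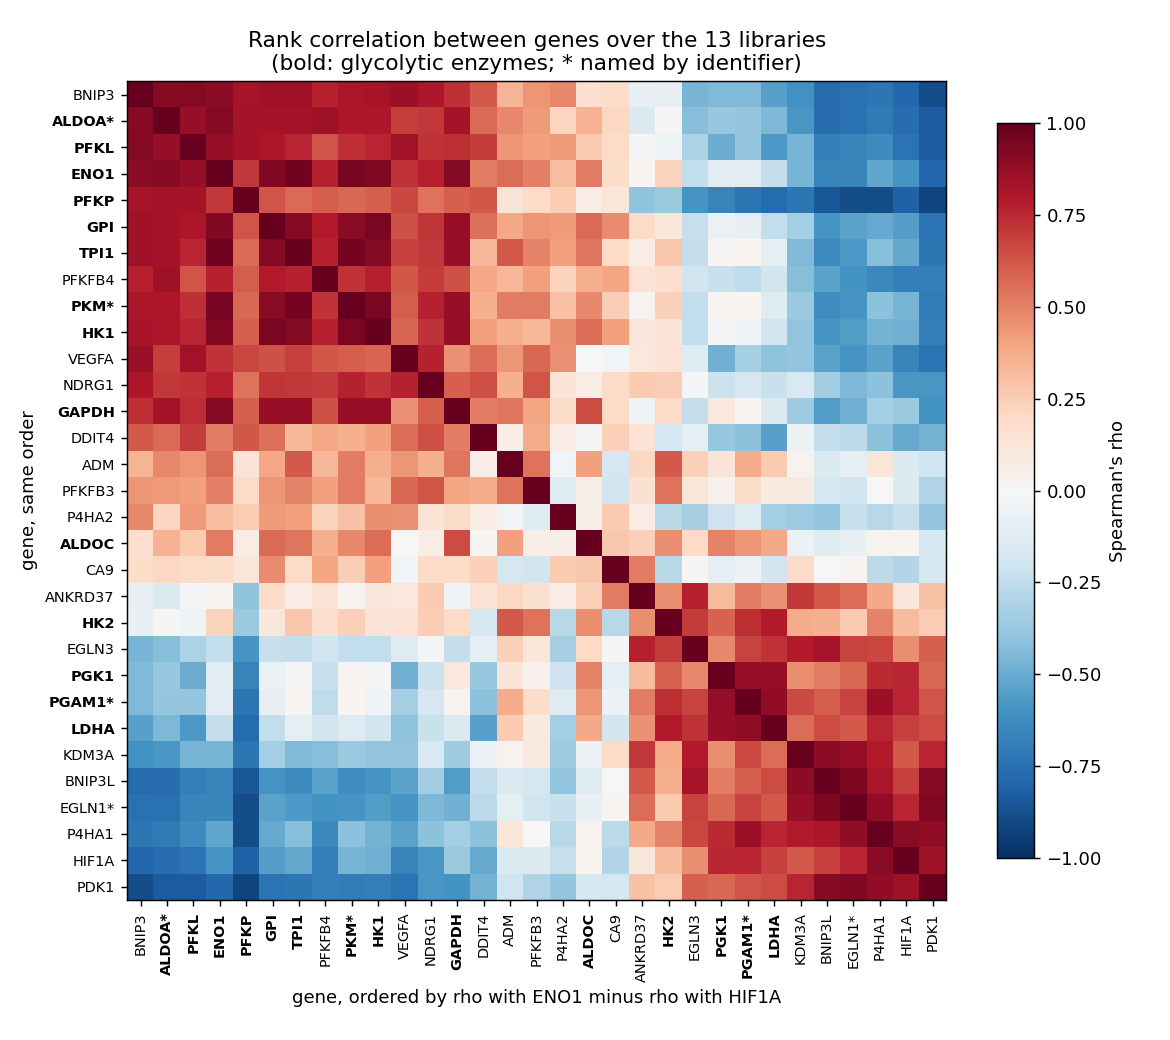
Spearman's rho between each pair of genes over the 13 libraries, on a colour scale from -1 to 1, with genes ordered by rho with ENO1 minus rho with HIF1A. Bold names are glycolytic enzymes. The upper left block holds ENO1, TPI1, GPI, HK1, PFKL and PFKP with BNIP3, PFKFB4, VEGFA and NDRG1, and the lower right block holds HIF1A, P4HA1, PDK1, BNIP3L and KDM3A with PGK1 and LDHA.

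Some of the other hypoxia targets went with HIF1A, some with ENO1 and others with neither. ANKRD37 had a rho of 0.02 with ENO1 and 0.12 with HIF1A, CA9 0.19 and -0.29, and P4HA2 0.31 and -0.23. HIF1A and P4HA1 had an r of 0.904 and a rho of 0.901 (n = 13; permutation p = 4e-05 and 7e-05, adjusted p = 0.00175 and 0.00205). Without P28 and P31, the libraries farthest from the median HIF1A level, r was 0.855. After the group means were taken out r was 0.885, and within males it was 0.960 and within females 0.940. HIF1A also had a rho of 0.846 with PDK1 and of 0.687 with BNIP3L, the latter short of the limit of 0.698.

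BNIP3, PFKFB4, VEGFA and NDRG1 went with ENO1, at rho 0.896, 0.769, 0.725 and 0.780. The opposite sides met in BNIP3 and PDK1, with an r of -0.896 and a rho of -0.885 (n = 13; permutation p = 6e-05 and 0.00017, adjusted p = 0.00175 and 0.00373). Without P13 and P28 that r was -0.841. The paralogs BNIP3 and BNIP3L, both mitophagy receptors, ran against each other at a rho of -0.769, with an r of -0.801 over all libraries and -0.594 without P13 and P28. HIF1A and VEGFA, a textbook regulator and its target, had a rho of -0.665, which fell short of the limit of 0.698 in size.

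Of the 6 relations set out for testing, those of SLC2A1 with SLC2A3 and of PGK1 with HMOX1 were not analysed here. VEGFA and ADM had an r of 0.470 and a rho of 0.445 (n = 13; permutation p = 0.104 and 0.128, the same after adjustment over 4 pairs) and did not pass. Without P13 and P28, r was 0.597. PGK1 and LDHA had an r of 0.915 and a rho of 0.868 (n = 13; permutation p = 8e-05 and 0.00022, adjusted over 4 pairs p = 0.00032 and 0.00088). Without P13 and P32, r was 0.892, and within the 8 treated libraries it was 0.940. PGK1 and HIF1A had an r of 0.794 and a rho of 0.753 (permutation p = 0.00175 and 0.00408, adjusted p = 0.0035 and 0.00816), with an r of 0.692 without P13 and P32. PGK1 and VEGFA had an r of -0.547 and a rho of -0.484 (permutation p = 0.053 and 0.096, adjusted p = 0.0706 and 0.128) and did not pass, with an r of -0.352 without P13 and P32.

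The libraries fell into separate clusters for PGK1 and LDHA, and the values over all libraries include the step between those clusters. P16, P24, P31, P32 and P42, 1 vehicle and 4 treated veins, were the 5 highest for PGK1 (53.6 to 72.8 RPKM, the other 8 at most 36.3). They were also the 5 highest for LDHA (135 to 198 RPKM, the other 8 at most 57.6), for HK2 (9.74 to 16.98 RPKM, the other 8 at most 5.84) and for PGAM1 (66.7 to 110 RPKM, the other 8 at most 61.6). Among the other 8 libraries PGK1 and LDHA had an r of 0.599 and a rho of 0.690, PGK1 and HIF1A an r of 0.639 and a rho of 0.524, and PGK1 and VEGFA an r of -0.834 and a rho of -0.548. These libraries were those left once the highest for PGK1 and LDHA were set aside, so the range of both genes was narrowed by that choice and no test is read from them.

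The same 5 veins were also the 5 highest for the summed level of macrophage and of neutrophil markers. All 12 macrophage markers listed were in the table, and they summed to 430 to 1119 RPKM in these 5 veins and to at most 310 RPKM in the other 8. By group the sum ran from 218 to 1119 RPKM in vehicle veins and 165 to 702 RPKM in treated veins, and 6 of the 12 had a higher mean in treated veins. Of 10 neutrophil markers 6 were in the table, and they summed to 19.4 to 628 RPKM in these 5 veins and to at most 7.18 RPKM in the other 8. By group they ran from 2.36 to 313 RPKM in vehicle veins and 1.46 to 628 RPKM in treated veins. The 4 that passed the filter all had a higher mean in treated veins. Over all 13 libraries PGK1 and the macrophage sum had an r of 0.830 and a rho of 0.819 (permutation p = 0.00061 and 0.00118, adjusted over 36 relations p = 0.00732 and 0.0175), with an r of 0.886 without P16 and P24. PGK1 and the neutrophil sum had an r of 0.786 (permutation p = 0.00183, adjusted p = 0.0110) and a rho of 0.648 (permutation p = 0.0198, adjusted p = 0.0890), with an r of 0.805 without P16 and P31. Within the other 8 libraries, chosen as above and so with no test read, r with PGK1 was 0.478 for the macrophage sum, -0.045 for the neutrophil sum, 0.537 for the proliferation sum and -0.724 for the fibroblast sum. The share of all genes tested that reach such values with these sums was not computed, so the relations are not read as particular to PGK1. The part of leukocytes in the levels of PGK1, LDHA and HK2 was not tested.

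**Figure D5:**
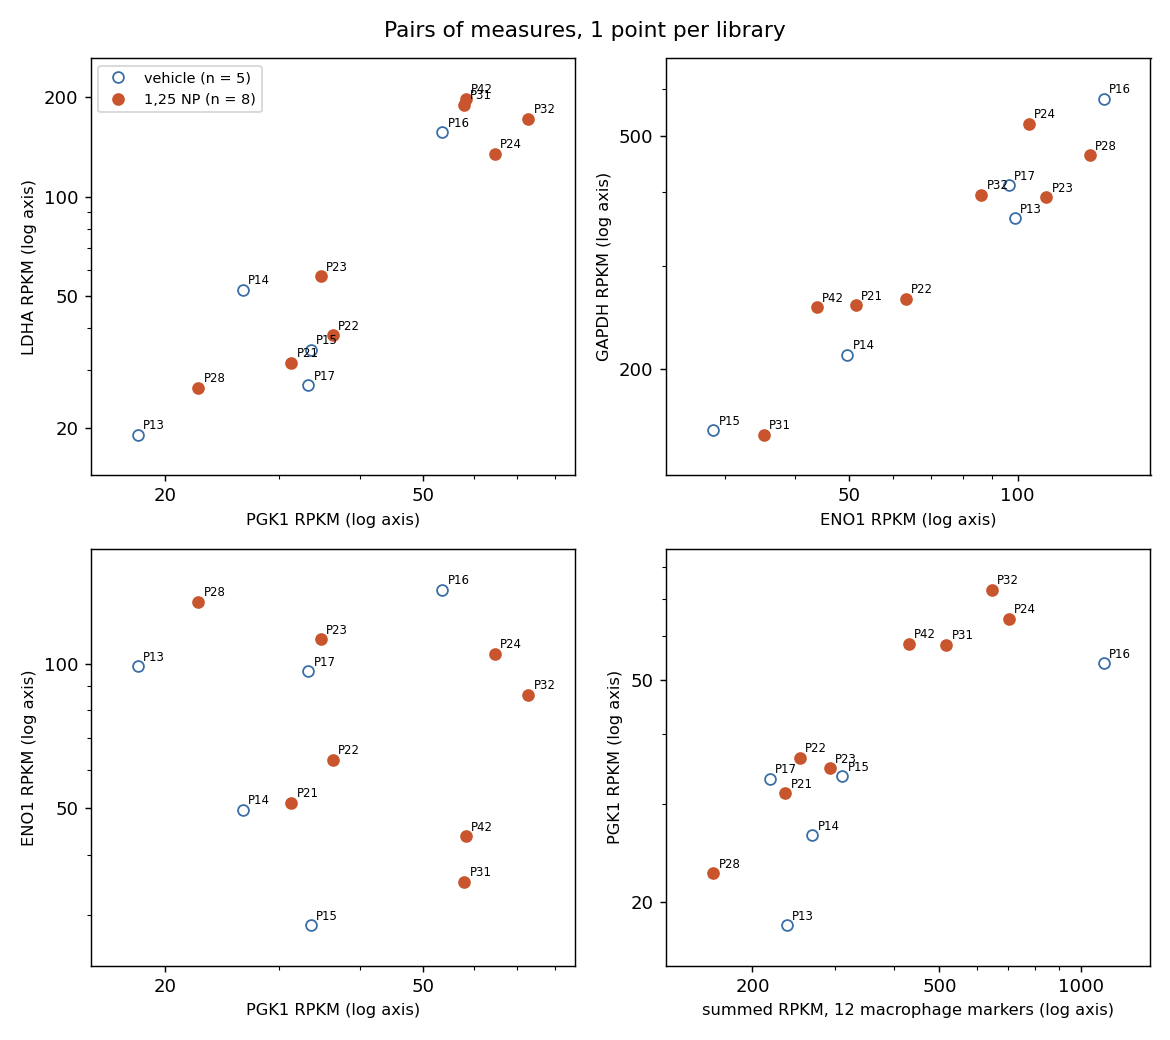
Each point is a library, open for vehicle (n = 5) and filled for 1,25 NP (n = 8), on log axes in RPKM. The panels plot LDHA against PGK1, GAPDH against ENO1, ENO1 against PGK1, and PGK1 against the summed RPKM of 12 macrophage markers. P16, P24, P31, P32 and P42 stand apart at the top of PGK1, LDHA and the macrophage sum, but they are spread from low to high for ENO1.

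Across all 13 libraries both HIF1A and PGK1 went with the proliferation markers and against the fibroblast markers. In all, 36 relations of HIF1A, PGK1 and ENO1 with marker sums and library measures were computed after seeing the data. The share of all genes tested that reach such values with these sums was not computed. The relations are therefore not read as particular to HIF1A and PGK1. HIF1A and the summed proliferation markers, 9 of 10 of which were in the table, had an r of 0.811 and a rho of 0.852 (n = 13; permutation p = 0.00097 and 0.00032, adjusted p = 0.00873 and 0.0115). Without P24 and P32, r was 0.759, and after removal of the group means it was 0.775. The proliferation sum ran from 16.5 to 53.6 RPKM in vehicle veins and 18.3 to 153 RPKM in treated veins, and all 9 markers had a higher mean in treated veins. HIF1A and the summed 10 fibroblast markers had an r of -0.783 (permutation p = 0.00165, adjusted p = 0.0110) and a rho of -0.709 (permutation p = 0.00822, adjusted p = 0.0592). Without P13 and P42, r was -0.722. The fibroblast sum is weighted to its most abundant markers, and 5 of the 10 had a higher mean in treated veins. RPKM is scaled by the library total, so many reads on abundant fibroblast markers lower the RPKM of other genes. The permutations do not allow for this. Its part in the negative relations of HIF1A and PGK1 with this sum was not tested. PGK1 had an r of 0.832 and a rho of 0.797 with the proliferation sum (permutation p = 0.00053 and 0.00146, adjusted p = 0.00732 and 0.0175), and r was 0.728 without P24 and P32. With the fibroblast sum PGK1 had an r of -0.839 and a rho of -0.775 (permutation p = 0.0004 and 0.0027, adjusted p = 0.00732 and 0.0243), and r was -0.763 without P13 and P42. ENO1 passed with none of the 12 measures, its nearest being an r of -0.565 with the number of genes above 0 RPKM (permutation p = 0.0349, adjusted p = 0.157). The part of these cell types in the HIF1A and PGK1 levels was not tested.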

How the data were processed

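RNA of 13 pig outflow veins was sequenced from TruSeq V2 libraries made from 0.5 µg of total RNA, per the labels' protocols. The labels also carry a mouse protocol and the submitters' processing notes name mm10; both contradict the pig identifiers and were not used. With aligner, pig build and strand setting not given in the sources used here, overlapping and antisense genes are uncertain, as for 12 of the listed genes. The authors deposited a value per gene and library that had already been scaled by gene length and library total, taken here as RPKM because reads recovered from it were whole, within 0.001, for 100% of values. The header names no unit. The deposited gene length is another column and was used only to recover reads. Columns name group, animal code and sex, without a replicate number. The codes were read as separate animals, and p-values measure the spread between these libraries.

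limma 3.58.1 in R 4.3.3, with a mean-variance trend, was fitted to log2(RPKM + 0.5) of 14579 genes above 0.5 RPKM in at least 5 libraries. Tests were two-sided, with Benjamini-Hochberg adjustment at 0.05. Fold differences are on the log2(RPKM + 0.5) scale. The fit was also run on simulated reads with the same dispersion for every gene and no variation shared between genes. These libraries differ from that setting, so the run does not show how the fit performs on them. Of 14012 entries without a symbol, 785 were named by identifier from a reference table. Correlations used scipy 1.17.1 and figures matplotlib 3.10.9. Alternatives were other pseudocounts (0.1 and 1), filters (none and 1 RPKM), median-of-ratios scaling, voom on recovered reads, a sex covariate and each library left out. Library values are given for HIF1A, VEGFA, PGK1 and the 3 genes with the smallest p in each direction of each list found by symbol. Of each pathway list up to 4 genes with the smallest p are named. PFKM and other genes described by library (EGLN3) were chosen after their values were seen. The genes and lists were chosen with earlier results of these data known.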

Additional observations from a re-analysis of the deposited data

Results flagged for a closer look

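Of 62 gene-by-group sets of libraries checked for a library far from the rest, 8 held one. The limit used gives about 1 in 20 for independent sets of normally distributed values. Here it was applied to RPKM without logs, in sets that share animals, and every flagged library was the highest of its set. No excess over chance is therefore read from this count. Vehicle P16 was the highest vehicle vein by a wide gap for LDHA at 157 RPKM (next 52.3), HK2 at 16.98 RPKM (next 5.50), ANKRD37 at 4.60 RPKM (next 1.92) and EGLN3 at 34.9 RPKM (next 9.90). Treated P28 was the highest treated vein for PFKP at 28.5 RPKM (next 13.8) and PFKL at 17.7 RPKM (next 5.51). Treated P23 was the highest treated vein for PFKFB4 at 6.59 RPKM (next 4.17) and CA9 at 1.51 RPKM (next 0.794).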

How the results depend on the processing

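With 5 and 8 animals and this spread, intervals of the log2 differences were wide, and a missed threshold does not show equal levels. No alternative called any of the genes on the list for treatment, and the smallest limma adjusted p for treatment was 0.322, without P28. Sex by treatment was rerun only with the other pseudocounts, the other filters and each library left out, and no gene on the list was called. Median-of-ratios scaling and voom were not run for it. Of 650 single-gene alternatives 589 kept the direction, and 16 of 31 genes kept it in every alternative run. The direction turned only for genes with a log2 difference no farther from 0 than that of VEGFA, -0.19, and the cause was not tested. ALDOC was -0.000252 with pseudocount 0.1, -0.00149 with voom and -0.054 with sex as a covariate. EGLN3 was 0.0153 with pseudocount 0.1, 0.0482 with median-of-ratios scaling and 0.0761 with voom. ENO1 was 0.0642 with median-of-ratios scaling and 0.11 with quality weights, ADM was -0.24 with quality weights and -0.11 with the sex covariate, and GAPDH was -0.0361 with the sex covariate. Leaving out 1 library gave log2 differences of -0.16 to 0.28 for ADM, -0.0705 to 0.13 for ALDOC, -0.40 to 0.0769 for BNIP3, -0.11 to 0.32 for BNIP3L, -0.00514 to 0.27 for EGLN1, -0.46 to 0.61 for EGLN3, -0.34 to 0.24 for ENO1, -0.21 to 0.26 for GAPDH, -0.0562 to 0.18 for HK1, -0.25 to 0.0316 for KDM3A, -0.23 to 0.10 for NDRG1, -0.32 to 0.10 for PFKFB3, -0.12 to 0.21 for PKM, -0.10 to 0.26 for TPI1 and -0.38 to 0.0349 for VEGFA. Leaving out 1 library called 0 to 1 genes in all (1 without P17, not on the list), left 3 to 8 of the 11 glycolytic enzymes higher (3 without P15) and 1 to 5 of the oxygen-sensing genes higher (1 without P13). The sex-by-treatment test called 0 to 3 genes without 1 library, 3 with pseudocount 1 and 5 with no filter. CA9 had no value under the 1 RPKM filter. No paired analysis was possible because the columns carry no replicate number.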
